A study of Mus musculus with 6 samples.

Results

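Chemokines are small secreted proteins that draw leukocytes along a gradient, and their receptors are G protein-coupled receptors on the cells that respond. In liver they are made by Kupffer cells (the resident macrophages), endothelial cells, stellate cells and hepatocytes, and they are known for bringing monocytes, neutrophils and lymphocytes into injured tissue. The family was taken as every gene whose name on the array begins with Ccl, Cxcl, Ccr, Cxcr, Cx3cl or Cx3cr followed by a digit, which gave 49 of the 27962 gene names, 34 ligands and 15 receptors. Where a name had several probes, as 14 did, the brightest one over the 6 arrays was used. Ccl27, Cxcl4 and Cxcl7 are older names for Ccl27a, Pf4 and Ppbp.

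The livers came from male 129/Sv mice, 6 to 8 weeks old at the start, that drank either a Lieber-DeCarli liquid diet with 4% ethanol or an isocaloric control diet with maltose dextran in its place for 1, 2 or 4 months, after all of them had first been kept on the control liquid diet. Total RNA of 6 mice was pooled for each diet and month, so that 6 pools of different mice were measured. The alcohol and control pool of a month were hybridized together on 2 two-color Agilent arrays with the dyes exchanged. The 2 arrays of a month therefore repeat the labeling and hybridization of the same pools and say nothing of the spread between mice. All ratios below are log2 of alcohol over control from the processed signals, where 1 is a 2-fold higher signal in alcohol-fed mice, and are given for the array with the alcohol pool in Cy5 first and in Cy3 second. In whole liver RNA, a change in the number of cells that make a chemokine and a change in RNA per cell cannot be told apart. The months 2 and 4 shared a slide and month 1 had another, so that slide and month cannot be told apart in a comparison with month 1.

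Of the 49 genes, 33 had a signal well above background on all 6 arrays in either pool (22 ligands and 11 receptors), 12 were so in some pools only, and Ccl4, Ccl22, Cxcl5 and Cxcl7 were in none. For the last 4 neither channel was well above background on any array, so their ratios are not interpreted. Over whole arrays 73.3 to 90.3% of the spots of a channel were well above background.

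The largest averaged ratio at month 4 was that of Ccl6, a CC chemokine of macrophages and other myeloid cells that acts through CCR1. Its promoter is shown beside that of Ccl9, a related CC chemokine and CCR1 ligand from the neighboring gene, because the 2 genes lie side by side and yet had different time courses. The sequences are RefSeq promoters of GRCm38.p6 on the minus strand, from 250 bases before to 50 bases after the start of the gene, with the longest run that both share in capitals. That of Ccl6 is chr11:83593038-83593337 and that of Ccl9 is chr11:83578587-83578886.
Ccl6: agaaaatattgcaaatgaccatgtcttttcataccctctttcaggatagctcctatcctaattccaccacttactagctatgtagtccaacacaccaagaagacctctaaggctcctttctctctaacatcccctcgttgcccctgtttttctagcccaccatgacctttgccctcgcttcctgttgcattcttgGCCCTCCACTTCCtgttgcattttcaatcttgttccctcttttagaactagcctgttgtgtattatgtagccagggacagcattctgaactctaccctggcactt
Ccl9: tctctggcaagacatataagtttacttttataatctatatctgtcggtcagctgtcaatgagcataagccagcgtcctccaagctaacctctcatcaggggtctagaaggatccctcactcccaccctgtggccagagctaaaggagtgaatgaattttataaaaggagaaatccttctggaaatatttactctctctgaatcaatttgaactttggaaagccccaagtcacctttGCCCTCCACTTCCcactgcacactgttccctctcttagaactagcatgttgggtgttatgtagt
The shared run is 13 bases long and ends 43 bases before the start of Ccl6 and 2 bases before the start of Ccl9. In the best local alignment of the promoters 59 of 67 aligned base pairs were identical (88.1%), not counting 7 gaps. The alignment covered only part of the promoters. The run holds the letters ACTTCC, the core to which ETS-family factors are known to bind, which occurs on either strand in 23.8% of all 32851 promoters and in those of 17 of the 36 family genes with an entry. This motif was picked after the sequences were seen, and a match describes letters only.

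The log2 ratio of Ccl6 was 0.14 and 0.09 at month 1, 0.53 and 0.65 at month 2, and 1.01 and 1.03 at month 4. The alcohol pool was the brighter one on all 6 arrays, and the values of the 3 months did not overlap. The averages were 0.11 ± 0.04, 0.59 ± 0.08 and 1.02 ± 0.01 (SD between the 2 arrays of a month, n = 2 arrays), which is 1.08-, 1.51- and 2.03-fold. Against the 75th percentile of each array, the alcohol pool stood at -0.78, -0.44 and -0.34 and the control pool at -0.89, -1.02 and -1.36 on the log2 scale. Between months 2 and 4, on the same slide, the control pool thus lay lower by more than the alcohol pool lay higher, and this difference was not tested.

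**Figure D1:**
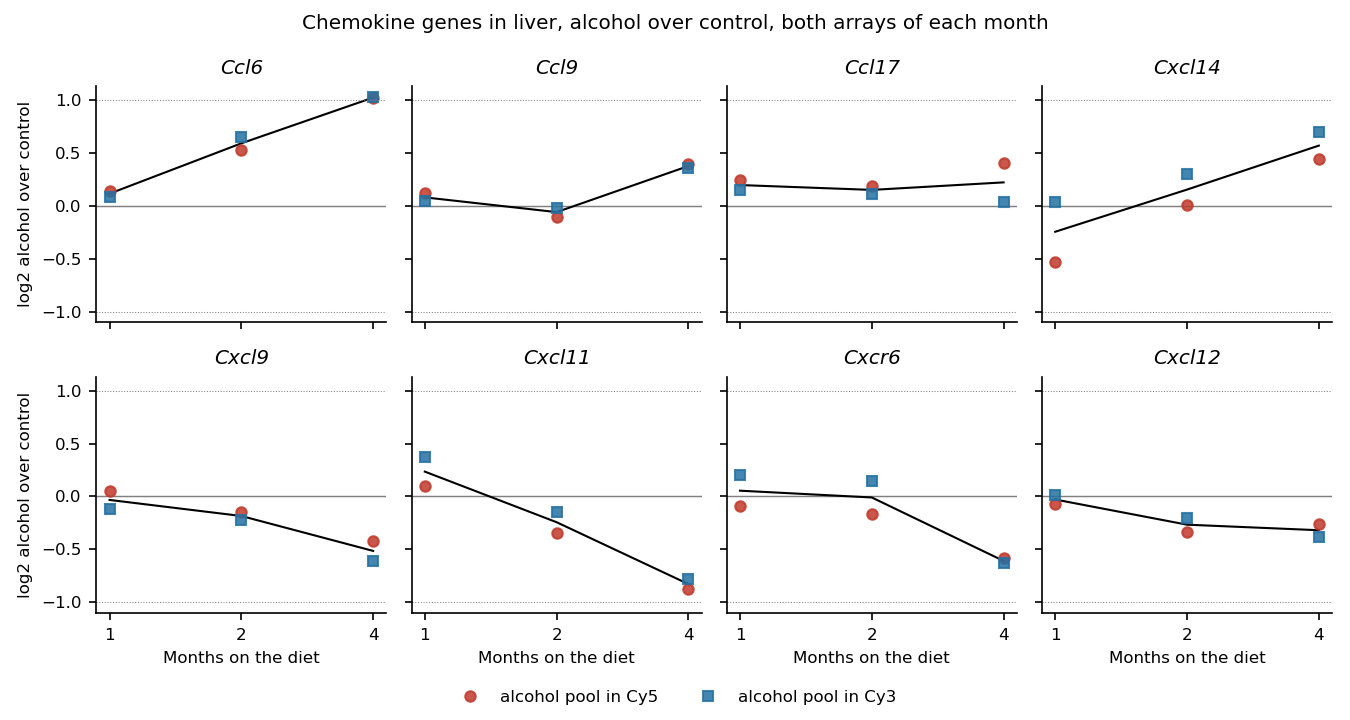
Log2 ratio of alcohol over control (vertical axis) against months on the diet (horizontal axis, evenly spaced) for 8 genes, with 1 point for each array, colored by the dye of the alcohol pool, lines through the averages and dotted lines at 2-fold. The average of Ccl6 went from 0.11 to 1.02 and that of Cxcl11 from 0.23 to -0.83.

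Ccl9 had ratios of 0.12 and 0.04 at month 1, -0.10 and -0.02 at month 2, and 0.39 and 0.36 at month 4. It was slightly brighter in the control pool at month 2, when Ccl6 was already brighter in the alcohol pool on both arrays. Ccl6 exceeded Ccl9 by 0.04, 0.65 and 0.65 on the log2 scale in the 3 months. Of the other macrophage inflammatory ligands, Ccl5, which attracts T cells, stayed between -0.14 and 0.10 on every array with its brightest probe, while its other probe, also above background everywhere, gave 0.17 and 0.38 at month 4. Ccl3 was above background on at most 1 array of a month in either pool. The receptor that Ccl6 and Ccl9 share, Ccr1, had ratios of 0.10 and -0.19 at month 1, -0.17 and 0.27 at month 2, and 0.49 and 1.12 at month 4. It was well above background in neither pool at month 1, and later in the alcohol pool on both arrays and in the control pool on 1, so its ratios are those of a dim probe.

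Genes were called when the averaged ratio reached 2-fold with a p-value of the scanner's error model below 0.05, a technical filter that does not test the effect of alcohol. At month 4 only Ccl6 was raised, 1 of 49 or 2.04%, where 0.354% of all gene names were raised and 0.29% lowered. That call lay at the limit, since with normexp background correction and loess the ratio of Ccl6 was 0.99 and no member was called, and on the array with alcohol in Cy3 alone Ccr1 was called beside Ccl6. At months 1 and 2 no member was called, with 0.107% and 0.136% of all gene names raised and 0.0894% and 0.111% lowered. At a lower limit of 1.5-fold, 3 members were raised at month 2 (Ccl6, Ccl12 and Ccr10; 6.12%, against 0.54% of all gene names) and none lowered (0.808%). Ccl12 was above background in the alcohol pool only, and counting only members above background in both channels left it out. None of these 3 calls held with normexp and loess (0.57, 0.48 and 0.51, below the limit of 0.585). Those of Ccl6 (0.53) and Ccr10 (0.48) were also lost on the array with alcohol in Cy5 alone, that of Ccr10 with the error-weighted average (0.58), and that of Ccl12 on the array with alcohol in Cy3 alone, where its ratio of 0.67 missed the error filter. At month 4, Ccl6 and Ccr1 were raised (4.08%, against 1.48%) and Cxcl11 and Cxcr6 lowered (4.08%, against 1.08%). With normexp and loess Ccl6 and Cxcl11 kept this call, while Ccr1 (0.55) and Cxcr6 (-0.42) lost it, as both also did on the array with alcohol in Cy5 alone (0.49 and -0.58). Counting only members above background in both channels left out Ccr1 as well. None passed at month 1, when 0.336% of all gene names were raised and 0.315% lowered. The median ratio of the 49 genes was 0.02, 0.01 and 0.02, and that of all gene names 0.01, 0.00 and -0.01. Within 1.5-fold lay 49, 44 and 45 of the 49 genes in the 3 months (100, 89.8 and 91.8%), against 98.9, 97 and 95.6% of all gene names. Of the 33 genes above background everywhere 33, 32 and 30 did (100, 97 and 90.9%), against 99.3, 99 and 98% of all gene names above background everywhere. The exceptions of month 2 include Cxcl7 and Ccr8, which were above background in neither pool at that month.

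**Figure D2:**
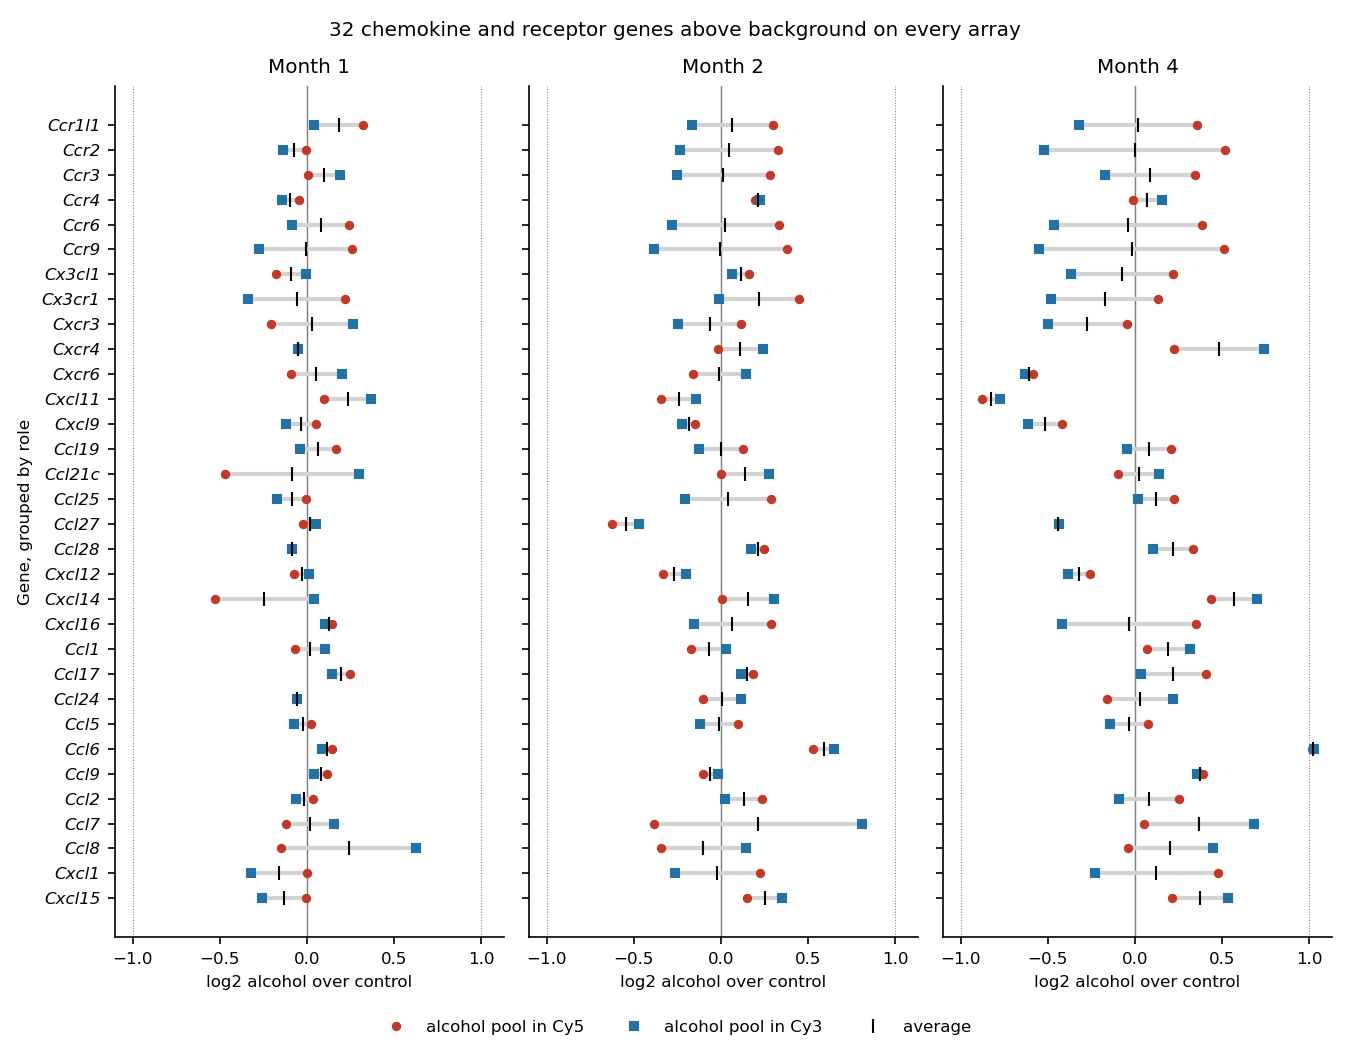
Log2 ratio of alcohol over control (horizontal axis) of 32 of the genes above background in both pools on every array (vertical axis, grouped by role), 1 panel for each month, with both arrays as points, their average as a tick and dotted lines at 2-fold. Most ticks lie near 0, and at month 4 the averages run from -0.83 (Cxcl11) to 1.02 (Ccl6).

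The ligands of CXCR3, which interferon-gamma induces and which attract activated T cells and NK cells, include Cxcl11, which was lowered by the 1.5-fold limit at month 4. Cxcl11 had ratios of 0.10 and 0.37 at month 1, -0.34 and -0.14 at month 2, and -0.88 and -0.78 at month 4. It was thus brighter in the alcohol pool on both arrays of month 1 and dimmer on the 4 later arrays, with averages of 0.23 ± 0.19, -0.24 ± 0.14 and -0.83 ± 0.07 (SD, n = 2 arrays), the last being 1.77-fold lower. Cxcl9 had ratios of 0.05 and -0.12, then -0.15 and -0.22, then -0.42 and -0.61. Its month 4 average, -0.51 ± 0.14 (SD, n = 2 arrays) or 1.43-fold lower, did not reach the 1.5-fold limit, and was -0.33 with normexp and loess. Cxcl10 was dim. At month 2, with 0.19 and 0.83, the alcohol pool was above background on both arrays and the control pool on 1. At month 4, with -0.67 and -0.02, only the control pool was above background, on 1 array. Averaged over both arrays, single channels after normexp and loess put control 1.15-fold higher, an estimate and no lower bound. Cxcl4, a platelet chemokine counted in this group, was at -0.53 and -0.44 at month 2 and at 0.32 and -0.32 at month 4. Of these 4 genes Cxcl11 alone passed 1.5-fold, and the ratios of Cxcl10 and Cxcl4 give no shared direction. Their receptor Cxcr3 was at -0.20 and 0.26, 0.12 and -0.25, and -0.05 and -0.50, so that the 2 arrays of months 1 and 2 had opposite signs.

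Cxcr6, a receptor of T and NKT cells that binds CXCL16 on liver sinusoids, was near 0 at first and lower at month 4. Its ratios were -0.09 and 0.20, then -0.16 and 0.14, then -0.58 and -0.63, and the last average was -0.61 ± 0.03 (SD, n = 2 arrays) or 1.52-fold lower, and -0.42 with normexp and loess, which is below the 1.5-fold limit. The month 4 arrays did not overlap the 4 earlier ones. The ligand Cxcl16 was at 0.35 and -0.42 at month 4, with opposite signs on the 2 arrays, and another probe for it, above background everywhere, gave the opposite order (-0.51 and 0.07) and averages of 0.28, 0.02 and -0.22 over the months.

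Among the CXC ligands made without a stimulus, Cxcl14, which is expressed in many epithelia, had ratios of -0.53 and 0.04 at month 1, 0.00 and 0.30 at month 2, and 0.44 and 0.70 at month 4. Its averages, -0.25 ± 0.40, 0.15 ± 0.21 and 0.57 ± 0.18 (SD, n = 2 arrays), stayed below 1.5-fold. Cxcl12, the ligand of CXCR4 from stromal and endothelial cells, was at -0.07 and 0.02, then -0.33 and -0.20, then -0.26 and -0.38. A second Cxcl12 probe, also above background everywhere, gave 0.19 and 0.05, then -0.25 and -0.18, then -0.74 and -0.67, and passed the 1.5-fold limit at month 4. Both probes were thus lower in the alcohol pool on the 4 later arrays, to a different extent. Cxcr4 itself was at -0.05 and -0.05, -0.02 and 0.24, and 0.22 and 0.74. Its other probe, not above background on every array, averaged 0.09, 0.13 and 0.25. Cxcl13, the B cell chemokine of lymphoid follicles, was above background in both pools only at month 4, with 0.40 and 0.50.

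The skin and mucosal ligands Ccl27 and Ccl28 both bind CCR10. Ccl27 was at -0.02 and 0.06, then -0.62 and -0.47, then -0.44 and -0.44, which is 1.46- and 1.36-fold lower at months 2 and 4. Ccl28 was at -0.09 and -0.08, then 0.25 and 0.17, then 0.33 and 0.10. Ccr10, above background in both pools on both arrays at months 2 and 4, was at 0.48 and 0.71 and then at 0.23 and 0.02, so that the month 2 call was not met again. The lymphoid ligands Ccl19 and Ccl21c had averages between -0.08 and 0.14. Ccl21c is one of several nearly identical copies, and which of them its probe measures is uncertain. Ccl20, a ligand of CCR6 on Th17 cells, was above background on 1 array of month 1 only.

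Of the ligands that attract monocytes, only Ccl12 was called at 1.5-fold, and only at month 2, against a control pool that was not above background. Ccl2, the main monocyte attractant, was at 0.04 and -0.06, 0.24 and 0.03, and 0.25 and -0.09. Averages of Ccl24 and Ccl25, ligands of eosinophils and of thymic and gut lymphocytes, lay between -0.09 and 0.12 with the brightest probe, but second probes above background everywhere averaged -0.18 at month 2 for Ccl24 and 0.24 and 0.26 at months 2 and 4 for Ccl25. Ccl7 was at -0.38 and 0.81 at month 2 and at 0.05 and 0.68 at month 4, while another probe for it had the opposite order of the arrays, 0.62 and -0.56 at month 4, and an average of 0.03. Ccl8 was at -0.15 and 0.63, -0.35 and 0.14, and -0.04 and 0.45. Ccl12 was above background at month 2 in the alcohol pool on both arrays and in the control pool on none. Its single channels after normexp and loess put alcohol 1.39-fold higher, an estimate and no lower bound. At month 4 its 2 arrays gave 0.16 and -0.65.

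The neutrophil-attracting Cxcl1 had opposite signs on the 2 arrays of months 2 and 4 (0.23 and -0.27, 0.48 and -0.23), and Cxcl2 was above background on 1 array of 1 pool only. Cxcl15, a lung neutrophil chemokine, was at 0.00 and -0.26, then 0.15 and 0.35, then 0.21 and 0.53. A second Cxcl15 probe averaged 0.03, 0.05 and 0.26. Among the ligands of eosinophils and Th2 cells, Ccl17, a CCR4 ligand, was small but brighter in the alcohol pool on all arrays: 0.25 and 0.15, 0.19 and 0.11, and 0.41 and 0.03. Ccl1 averaged 0.02, -0.07 and 0.19, and Ccl11 averaged -0.05, -0.27 and -0.03. With Ccl6, Ccl17 made 2 of 49 genes (4.08%) that were brighter in alcohol on every array, against 1.51% of all gene names, and no member was dimmer on every array, against 2.01%. The CX3C ligand Cx3cl1 (fractalkine, a membrane-bound chemokine) and its receptor Cx3cr1 averaged -0.09, 0.11 and -0.08, and -0.06, 0.22 and -0.17. A second Cx3cr1 probe, not above background on every array, averaged 0.35, 0.07 and -0.29.

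Of the 11 receptors above background everywhere, 5, 9 and 8 had opposite signs on the 2 arrays of months 1, 2 and 4 (45.5, 81.8 and 72.7%), and of the 22 such ligands 12, 9 and 9 did (54.5, 40.9 and 40.9%). Among all gene names above background everywhere the share was 53.1, 67.7 and 72.8%. Ccr9, a gut-homing receptor, gave 0.26 and -0.27, 0.38 and -0.39, and 0.51 and -0.55, and its averages were 0.00, 0.00 and -0.02. Ccr2, the monocyte receptor, gave 0.52 and -0.52 at month 4. Ccr6 gave 0.38 and -0.46 and Ccr1l1 0.35 and -0.32 at the same month, in each case with the channel labeled in Cy5 brighter. The SDs between the 2 arrays of these 4 genes at month 4 ran from 0.48 to 0.75, many times their averages. Another Ccr2 probe, not above background on every array, gave the opposite order at month 4 (-0.18 and 0.56). Ccr3, a receptor of eosinophils, averaged 0.09 at month 4 with opposite signs on the 2 arrays. Ccr4, a receptor of Th2 and regulatory T cells, averaged -0.09, 0.21 and 0.07. Ccr7, which guides cells to lymph nodes, was at 0.43 and 0.36 at month 4, its only month above background on both arrays in both pools, and Ccr8 was above background on 1 array of 1 pool only.

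**Figure D3:**
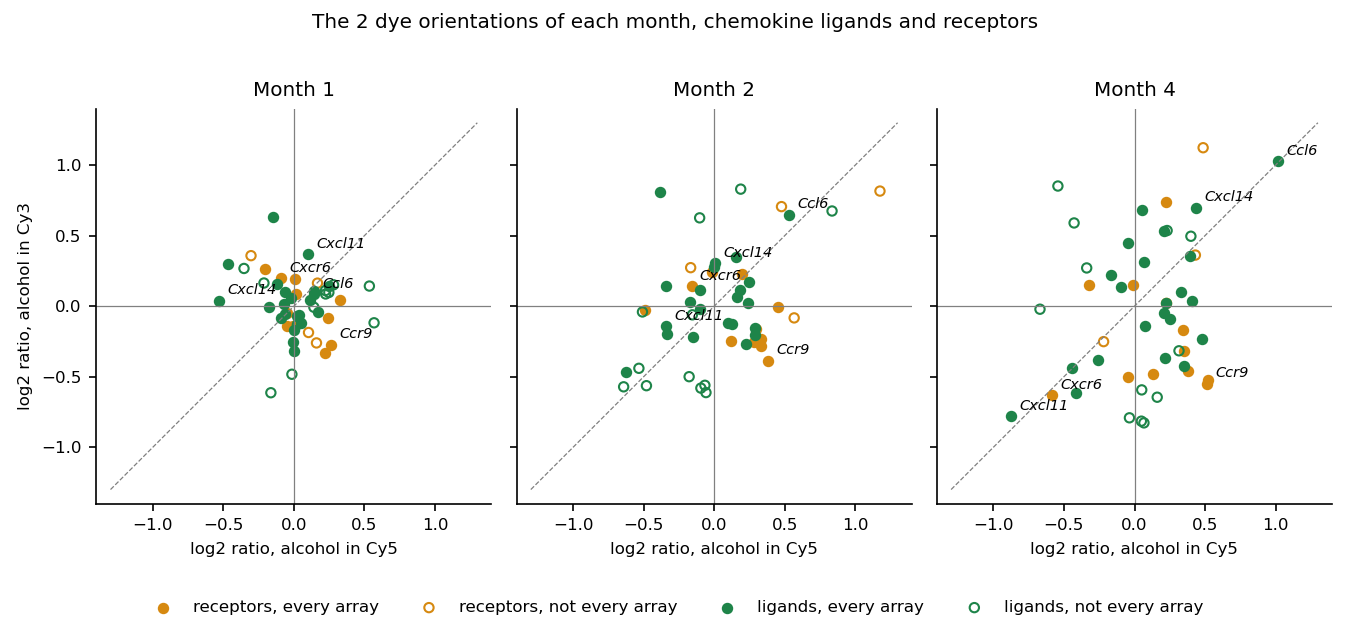
Log2 ratio of alcohol over control on the array with alcohol in Cy5 (horizontal axis) against that with alcohol in Cy3 (vertical axis) for the 49 genes, 1 panel for each month, receptors and ligands in separate colors and genes not above background on every array as open circles. Genes on the dashed line have the same ratio in both dye orientations, as Ccl6 does at month 4 (1.01 and 1.03), while Ccr9 lies in the lower right quadrant in each month.

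Over all 49 genes, the dye-dependent part of the ratio was larger than the averaged ratio for 25, 21 and 25 genes (51, 42.9 and 51%), against 48.2, 62.1 and 69.1% of all gene names. Pearson's r between the 2 arrays of a month, across the 49 genes, was -0.20, 0.41 and 0.24. Across the 33 genes above background everywhere it was -0.33, -0.04 and 0.40, so the value of month 2 came with the dim probes, and across all gene names it was 0.11, -0.27 and -0.27. Genes share arrays and labeling here and are no replicates, so no p is given. Averaging over exchanged dyes cancels a dye effect only where it is equal in both orientations.

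Across the 3 months as replicates, limma with Benjamini-Hochberg adjustment over 37922 probes called no member and no probe (0%) for an effect, and 0% for a trend with the log2 of the month. At an unadjusted p under 0.05, 2 of the 45 members fitted passed for the effect (Ccl6 and Ccl17; 4.44%, against 7.94% of all probes). For the trend 10 of 45 passed (22.2%, against 7.12%): Ccl6, Cxcl14, Cxcl15, Cxcl2, Cxcr4 and Ccr1 with a slope up, and Cxcl11, Cxcl9, Cxcr6 and Ccl20 with a slope down. This list holds for the brightest probes. The second probes of Cxcr4 (slope 0.08) and Cxcl15 (0.12) did not pass. Those of Cxcl12 (-0.41), Cxcl16 (-0.25) and, not above background on every array, Cx3cr1 (-0.32) passed with a slope down. Cxcl2, Ccr1 and Ccl20 were above background in some pools only, so their slopes rest in part on signals not well above background. Of the 33 genes above background everywhere 7 passed (21.2%, against 4.24% or 1184 of the 27898 probes above background everywhere). When only those 27898 probes were fitted, 2167 of them passed, and again 7 of the 33 genes. Without moderation of the variances 1 and 6 members passed unadjusted and none adjusted. The effect of Ccl6 was 0.58 (SE 0.18, limma adjusted p = 0.621) and its slope 0.45 for each doubling of time (SE 0.08, limma adjusted p = 0.687). Cxcl11 had a slope of -0.53 (SE 0.08) and Cxcl14 one of 0.41 (SE 0.08), both with a limma adjusted p of 0.687. With 3 monthly ratios only, the trend rests on 1 residual degree of freedom before moderation.

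Another 12 chemokine receptors and related genes carry other names on this array, among them Il8rb (Cxcr2), Blr1 (Cxcr5), Cmkor1 (Ackr3), Darc (Ackr1) and Xcl1. None of the 12 passed 1.5-fold with the error filter in any month, and their averages lay between -0.78 and 0.53. Of 28 genes of signaling and trafficking downstream of the receptors, only Rgs1 was called. Rgs1, a GTPase-activating protein that dampens chemokine receptor signaling in leukocytes, was at -0.11 and 0.69 at month 1, 0.29 and 1.74 at month 2, and 1.91 and 2.37 at month 4. The 4.4-fold average of month 4 was shared by both arrays, whereas the 2.02-fold average of month 2 came mainly from 1 array. It was not above background on every array. Of 25 cytokine and NF-kappaB genes upstream of chemokines, none reached 2-fold and Lbp, the lipopolysaccharide-binding protein of hepatocytes, was at 0.48 and 1.12 at month 4. Of these 25 genes, 20 were above background on every array and Il17a on none.

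The marker genes of the cells that make or bind chemokines had medians between -0.05 and 0.15 at month 4. The 13 genes of Kupffer cells and macrophages had a median of 0.08 (-0.09 to 0.40) and none was called, also at 1.5-fold. Their summed level, as log2 over the 75th percentile, was 5.63 and 5.65 in the alcohol pool and 5.73 and 5.49 in the control pool at month 4. At month 1 their median was 0.23, beside 0.31 for the 7 endothelial and 0.21 for the 6 hepatocyte genes, and Adgre1 (Emr1 on the array, a macrophage surface antigen) was called with 0.71 and 1.76, and at month 2 their median was 0.00 and Marco passed 1.5-fold with 0.60 and 0.62. The 13 T and NK cell genes had medians of 0.02, 0.00 and -0.01, with no call, and Klrk1 and Gzma were never above background. Their summed level at month 4 was 4.66 and 4.75 in the alcohol pool and 4.66 and 4.74 in the control pool. A part of these cells in the lower Cxcl11 and Cxcr6 of that month was not tested. The 6 monocyte, 7 B cell and 5 dendritic cell genes gave no call in any month. Of 10 neutrophil genes only S100a8 passed, with 1.33 and 1.20 at month 4, but it was never above background, so that value carries no information. Of 7 endothelial genes Lyve1 (Xlkd1 on the array) and Cdh5 passed 1.5-fold at month 1, and the 8 stellate cell genes had medians of 0.15, -0.02 and 0.15, with Reln alone lower by that limit at month 4 (-0.67). All 6 hepatocyte genes were above background on every array. Of them Tat passed 1.5-fold at month 2 (0.41 and 0.81) and at month 4, there through 1 array (1.34 and 0.03), and Alb (Alb1 on the array) at month 4 (0.81 and 0.37), and Apoa1 was lower by that limit at month 1, where its 2 arrays gave 0.26 and -1.47.

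**Figure D4:**
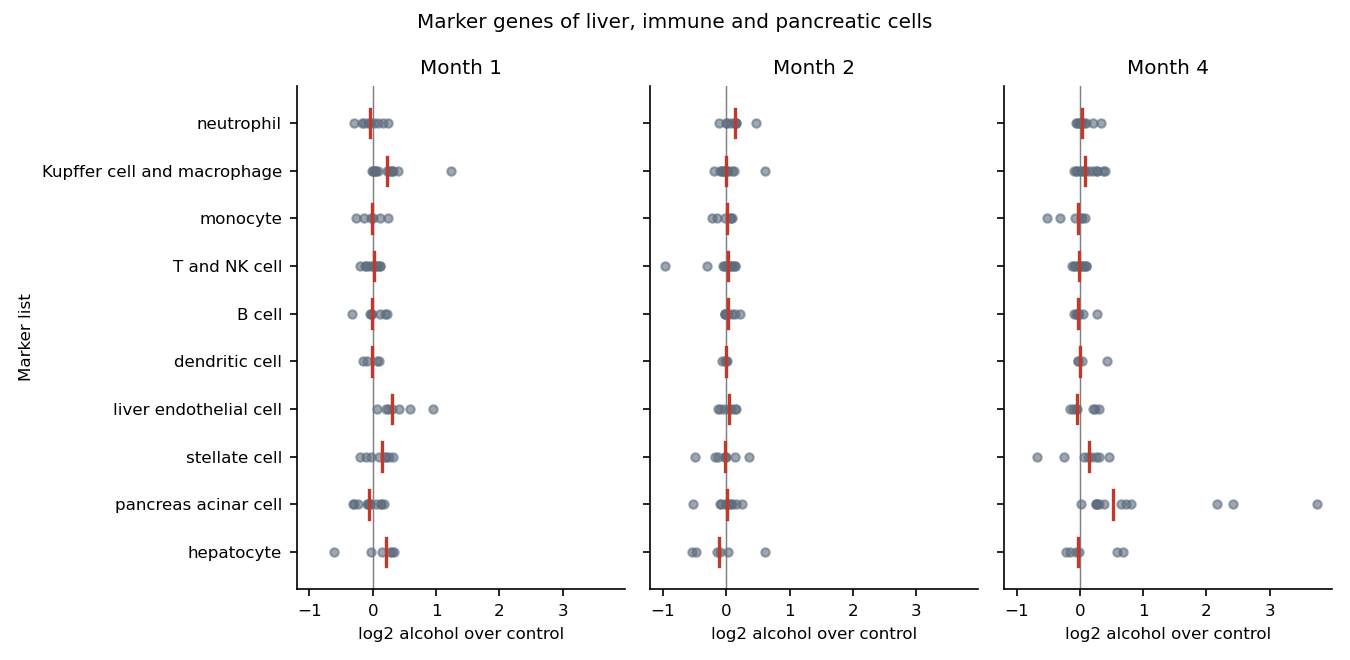
Averaged log2 ratio of alcohol over control (horizontal axis) of each marker gene that was above background in at least 1 pool (points) by marker list (vertical axis), 1 panel for each month, with the median of each list as a red line. At month 4 the median of the pancreas acinar cell genes is 0.52 and the next highest is that of the stellate cell genes at 0.15.

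Genes of pancreas acinar cells, which a liver should lack, moved with the alcohol pool of month 4. Of 12 such genes 3 were raised 2-fold (Cela2a, Pnliprp1 and Cpb1, with averages of 3.75, 2.42 and 2.17) and 6 at 1.5-fold, and the median was 0.52, after -0.05 and 0.02 in the earlier months. Their summed level was 5.09 and 5.05 in the alcohol pool and 4.69 and 4.8 in the control pool at month 4, as log2 over the 75th percentile, and 12 of 12 genes were above background in each pool. At month 2, when Ccl6 was at 0.53 and 0.65, none of the 12 was called and their averages lay between -0.52 and 0.25. The part of this tissue in the month 4 ratios of the chemokine genes was not tested.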

How the data were processed

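The submitters' notes name Agilent Feature Extraction 9.1.1.1. The authors deposited its output for 6 arrays, with an intensity for each channel (background-corrected and dye-normalized), a log10 ratio, a score that models its technical error, and a table of log10 ratios, which was used as an alternative. No file gave depth in reads; the number of arrays limits the precision. Control spots were left out and spots of a probe averaged. Ratios were turned to alcohol over control by the dyes in the labels and averaged over the dye-swapped pair; calls used an error-model p-value computed from the deposited ratio errors, and deposited p-values were not used. Since probes at background can hold fill-in signals, background flags were read beside each ratio. limma 3.58.1 in R 4.3.3 (lmFit, eBayes) tested 37922 probes above background in at least 1 channel of 1 array, with 3 monthly ratios, and was tested on simulated data. Tables were made in Python 3.11.15 with pandas 2.3.3, numpy 2.4.6 and scipy 1.17.1, and plots with matplotlib 3.10.9. The folds of Ccl12 at month 2 and Cxcl10 at month 4 came from single channels after normexp (offset 50), loess and Aquantile, averaged over both arrays. They are estimates open to dye bias, not lower limits. Of the 49 genes 46 matched a current RefSeq symbol. Named genes were those called, those above background in both pools on every array, those with the same direction on every array, and called genes of the other lists; genes outside this rule are named to account for the members, and 1 member is counted but its values are not reported here. Members and lists were chosen with earlier results of these data known. Alternatives covered background correction, ratio source, weighting, single arrays, centring, dim probes, fold limit, error filter, probe choice, slide and time scale.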

Additional observations from a re-analysis of the deposited data

Results flagged for a closer look

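Of the 33 genes above background in both pools on every array, 9 (27.3%) had both arrays of one month opposite in sign to both arrays of another, against 14.1% of all 19913 such gene names; dimmer genes were not considered. As the 2 arrays of a month repeat the same pools, these differences (log2, later minus earlier month) were not tested. Cxcl11 differed by -0.48 (month 2 minus 1) and -1.06 (month 4 minus 1). Cxcl15 differed by 0.38 and 0.50, and Ccl28 by 0.30 and 0.30, for the same pairs of months. Ccl9 differed by -0.14 (month 2 minus 1) and 0.44 (month 4 minus 2). Between months 1 and 2, Ccr4 differed by 0.31 and Cx3cl1 by 0.20. Between months 1 and 4, Cxcr4 differed by 0.53 and Ccl25 by 0.21. These values are those of the brightest probe. Second probes of Cxcr4 (averages of 0.09 and 0.25 at months 1 and 4), Cxcl15, Cx3cl1 and Ccl25 showed no such reversal between these months, and a dim second probe of Ccr4 went the opposite way (0.22 and 0.09 at month 1, -0.52 and -0.56 at month 2). Month 1 was on a slide of its own, so slide and month cannot be told apart here, except for Ccl9 between months 2 and 4.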

How the results depend on the processing

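The call of Ccl6 at month 4 lay at the limit: with normexp and loess its ratio was 0.99 and 0 members were called. Leaving out 1 array of month 4 gave 1 to 2 members, the second being Ccr1 on the array with alcohol in Cy3. At 1.5-fold, 3 members were called at month 2 and 4 at month 4. The median of the members at month 1 was -0.00903 with median centring, -0.00493 with members above background in both channels, and 0.0114 to 0.0395 on single arrays, and on single arrays it was -0.0411 to 0.00361 at month 2 and -0.0451 to 0.161 at month 4, against 0.0210 over both arrays there. Normexp and loess gave Cxcl11 a ratio of -0.68, Cxcl9 -0.33 and Cxcr6 -0.42 at month 4. Of 99 monthly values of named genes, 91 moved by less than the SD between arrays with normexp and loess and 93 with median centring. A combination added after seeing the data was normexp and loess at 1.5-fold. It ended the calls of Ccl6, Ccl12 and Ccr10 at month 2 and of Ccr1 and Cxcr6 at month 4. The array with alcohol in Cy5 alone also ended these calls, except that of Ccl12, which was lost on the array with alcohol in Cy3. Counting only members above background in both channels left out Ccl12 at month 2 and Ccr1 at month 4. limma called no member in any of 23 alternative fits (smallest adjusted p 0.149 for the effect and 0.0978 for the trend), with 1 to 11 members at an unadjusted p under 0.05 for the effect and 4 to 10 for the trend. Over all probes, against 0 in each case, normexp and loess gave 9 calls for the effect and 50 for the trend, probes above background on all arrays 6 for the effect, and unmoderated variances 1 for the trend. No paired analysis was possible because each array already holds both pools of a month and the replicate number is its dye orientation. Each month has 1 pool for each diet, so the spread between mice is unknown, and dim probes limit 16 of the 49 genes.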
